A study of Rattus with 12 samples.

Results

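Homeostatic astrocyte genes encode the proteins with which resting astrocytes take up glutamate, move water, couple to one another and carry out their metabolism. The set described here is 10 genes chosen by symbol, namely Aqp4, Slc1a2, Slc1a3, Glul, Gja1, Gjb6, Aldoc, Aldh1l1, Acsbg1 and S100b. All 10 are among the 17337 gene symbols of the count table, and 9 are among the 12271 genes with enough counts to be tested. The exception was Gjb6, which had 0 to 56 counts per culture and is given by its values alone. The genes were followed across 12 complex co-cultures of primary Sprague Dawley rat cortical neurons, astrocytes and oligodendrocyte precursor cells (OPCs), bought from commercial suppliers. The conditions, with 4 cultures each, were untreated (cultures A, G, M and P), a low dose of 0.01 μM fentanyl (B, H, N and Q) and a high dose of 10 μM fentanyl (C, I, O and R). Fentanyl, an opioid analgesic, was present for 4 days before RNA was extracted from the whole culture, and all cultures held the same 3 seeded cell types. The question was whether either dose changed the level of these astrocyte genes.

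Astrocytes clear glutamate from synapses through the transporters encoded by Slc1a2 and Slc1a3 and convert it to glutamine with the enzyme encoded by Glul. They share ions and metabolites through gap junctions made of connexins, and balance water through aquaporin 4 at their end-feet. When astrocytes become reactive, they typically raise structural and inflammatory genes such as Gfap, and the homeostatic genes are often read beside those.

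Levels are given as CPM, counts per 1000000 reads after scaling between cultures by the TMM method of edgeR, and they were compared between cultures but not between genes, since no transcript length was used. Cultures had total counts of 12059872 to 24813893, so that every gene of the set except Gjb6 and Aldh1l1 had at least 471 counts in each culture. Aldh1l1 had 90 to 596 counts. The RNA came from all cells of a culture, so fewer astrocytes and less of a transcript per astrocyte cannot be told apart. The letters of the cultures follow one another from untreated to low to high dose, which gives the groups P-Q-R, M-N-O, G-H-I and A-B-C, called letter sets here. Neither the labels nor the study's methods name these as a batch or a pairing, so values within them are given beside the pooled ones. The study counts 4 cultures per condition as biological replicates. The sources used here do not say whether they came from separate preparations of cells, and p-values measure only the spread between these samples.

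One library stood apart. Untreated culture G had a neuron marker score (mean log2(CPM + 1) of 14 markers) of 4.07, against 7.48 to 8.11 in the other 11 cultures, and all 14 markers were at their lowest there. The defining neuronal marker Rbfox3 was at 1.29 CPM in G. G and low dose culture N had the highest fibroblast marker scores, 7.78 and 7.21 (9 markers), against 4.18 to 5.63 elsewhere, so results are also given without these cultures. The homeostatic genes other than Gjb6 were detected in every culture, as was Gfap, so the labelled astrocytes had their defining transcripts throughout.

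Across the doses, no homeostatic astrocyte gene was called, a call being a log2 fold change of more than 0.5 up or down whose adjusted p was under 0.05. Nor was any other gene, with 0% of the 12271 called at the low dose, 0% at the high dose against untreated and 0% between the doses (edgeR quasi-likelihood test with Benjamini-Hochberg adjustment). The study itself, by RUVseq and edgeR at the same thresholds, reported differentially expressed genes in all 3 comparisons. The 0% holds for the fit made here, whose settings may differ from those of the study. At an unadjusted p under 0.05 the counts in the same order were 91, 146 and 144 genes, which is 0.742%, 1.19% and 1.17% of those tested, and 0 of the 9 homeostatic genes were among them in any comparison. The likelihood ratio test of edgeR called 0, 2 and 0 genes and DESeq2 called 0, 3 and 1 genes, with 0 homeostatic genes in each case. The count rose most in the high dose comparisons where a block for the letter set was fitted and culture G was also left out. Neither step by itself led to a call. Shares of genes at an unadjusted p under 0.05 were 2.47%, 3.05% and 2.96% for the block with G kept. They were 1.99%, 2.34% and 4.24% without G and without the block. With a block for the letter set and without culture G, 0, 15 and 14 genes were called and 7.54%, 9.43% and 13.6% had an unadjusted p under 0.05, again with 0 homeostatic genes called. For every one of the 10 genes the values of the conditions overlapped in all 3 comparisons. Conditions without any overlap were seen in 0.416% of tested genes for low dose vs. untreated, and in 0.685% and 1.19% for the high dose against untreated and against the low dose.

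The fitted changes of the homeostatic genes nonetheless lay mostly below 0. In high dose vs. untreated, 9 of 9 were below 0 with a median log2 fold change of -0.48, where the median of all tested genes was 0.00. Between the doses, 9 of 9 were lower at the high dose with a median of -0.21 (all genes -0.01), and in low dose vs. untreated 8 of 9 were below 0 with a median of -0.21 (all genes 0.01). These medians rested on single cultures. The median in high dose vs. untreated was -0.07 without untreated P (5 of 9 below 0), -0.22 without high dose O, -0.25 without untreated G and -0.84 without untreated A. The median for the low dose against untreated was 0.15 without P and 0.07 without N. The one between the doses was 0.13 without Q and, although untreated G is in neither group, -0.12 without G. Both comparisons with untreated share the same 4 untreated cultures, and most pairs of the 9 genes vary together across cultures. These counts are therefore a description and not independent observations. The 95% confidence interval of each gene's change held 0 in each comparison, and the intervals were wide enough that sizeable changes in either direction could not be told from none. For other cells, the neuron markers had a median log2 fold change of 0.54 in high dose vs. untreated with culture G (14 of 14 above 0) and of 0.08 without it (9 of 14 above 0). The microglia markers had a median of 0.89 with G and 0.48 without it (10 of 10 above 0 in both), and 0 markers of either list were called. With a block for the letter set and without G, 8 of 10 microglia and 4 of 14 neuron markers had an unadjusted p under 0.05. In that fit 9.43% of all tested genes did, and 0 markers of either list were called. Their part in the values of the astrocyte genes was not tested. The fit includes 1 estimated factor of unwanted variation, on which culture G had by far the most extreme value (3.09, against -0.73 to 0.51 in the others).

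**Figure D1:**
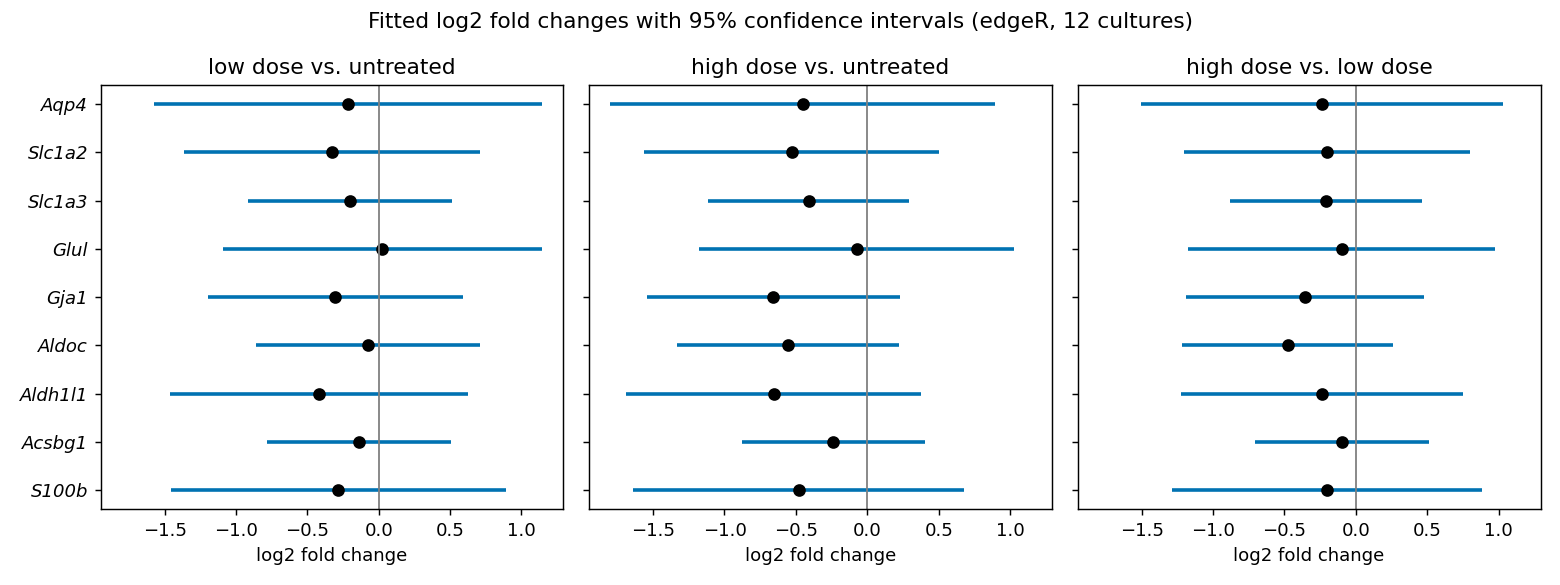
Log2 fold change (x axis) of the 9 tested homeostatic astrocyte genes in the 3 comparisons, with points for the fitted value of edgeR and lines for its 95% confidence interval over 12 cultures. All 9 points lie below 0 where the high dose is compared, with untreated or with the low dose, and every interval holds 0.

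Aqp4 encodes aquaporin 4, the water channel of astrocyte end-feet. It was at 213, 633, 308 and 735 CPM in untreated cultures A, G, M and P. It was at 309.9, 233, 252 and 838 CPM in low dose cultures B, H, N and Q, and at 329, 246, 171 and 638 CPM in high dose cultures C, I, O and R. The highest 3 values were those of Q, P and R, one from each condition, and untreated G came next. The condition means were 472 ± 251, 408 ± 289 and 346 ± 205 CPM (SD, n = 4 each), with a log2 fold change of -0.45 (SE 0.61) in high dose vs. untreated. The unadjusted p was 0.474 and the adjusted p 0.9999 (edgeR quasi-likelihood test with Benjamini-Hochberg adjustment). The value was -0.02 without untreated culture G and -0.95 without untreated A, and turned to 0.29 without untreated P.

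The glutamate transporters were also high in P and Q, with different cultures at the bottom. Slc1a2, which encodes GLT-1, was at 30.9, 46.3, 83.8 and 113 CPM in untreated A, G, M and P. It was at 38.1, 29.1, 60.2 and 106 CPM in low dose B, H, N and Q, and at 40.6, 46.2, 44.8 and 71.1 CPM in high dose C, I, O and R. The lowest values were those of low dose H and of all 3 A-B-C cultures. Its log2 fold change in high dose vs. untreated was -0.53 (SE 0.47, unadjusted p 0.281 by the edgeR quasi-likelihood test), and it was 0.00 without untreated culture P and -0.84 without untreated culture A.

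Slc1a3 encodes GLAST, the other main astrocyte transporter for glutamate. It was at 723, 501, 576 and 819.5 CPM in untreated A, G, M and P. It was at 814, 528, 342 and 890.4 CPM in low dose B, H, N and Q, and at 798, 428, 319 and 652 CPM in high dose C, I, O and R. Unlike Slc1a2, Slc1a3 was high in A-B-C as well as in P-Q-R, and its lowest values were those of O and N. The ratio of Slc1a2 to Slc1a3 counts was 0.0427 to 0.0509 in A-B-C and 0.0551 to 0.176 in the other 9 cultures. Slc1a3 had a log2 fold change of -0.41 (SE 0.32, unadjusted p 0.225) in high dose vs. untreated and -0.21 (SE 0.30, unadjusted p 0.503) in high dose vs. low dose by the edgeR quasi-likelihood test. These values were -0.21 without high dose O and -0.03 without low dose Q.

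Glul encodes glutamine synthetase, which astrocytes use to turn glutamate into glutamine and which is also known from oligodendrocyte-lineage cells. It was at 1048, 2095, 3605 and 3806 CPM in untreated A, G, M and P. It was at 1282, 3931, 2028 and 3957 CPM in low dose B, H, N and Q, and at 1343, 3613, 2598 and 2808 CPM in high dose C, I, O and R. The A-B-C cultures were the lowest of the 12 at all 3 doses, below the lowest of the other 9. The condition means of 2638 ± 1307, 2799 ± 1356 and 2591 ± 939.9 CPM (SD, n = 4 each) differed by far less than the spread within a condition. Glul had the smallest fold changes of the set in both comparisons with untreated, 0.03 (SE 0.50) and -0.07 (SE 0.50) on the log2 scale.

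Glul set itself apart from the other genes in how it varied between cultures. Its log2(CPM + 1) had a Pearson correlation of 0.96 with the oligodendrocyte marker score over the 12 cultures (10 markers, such as the myelin gene Mbp), and 0.97 without G. For Slc1a3 the same correlation was -0.27 over 12 cultures and -0.32 without G. The oligodendrocyte marker score was 5.79 to 6.53 in A-B-C, the lowest of the letter sets, and 8.98 in its highest culture, H. The ratio of Glul to Slc1a3 counts was 1.45 to 1.68 in A-B-C and 4.18 to 8.45 in the other 9 cultures. These correlations describe 12 cultures that share letter sets, and the part of oligodendrocyte-lineage cells in the Glul level was not tested.

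**Figure D2:**
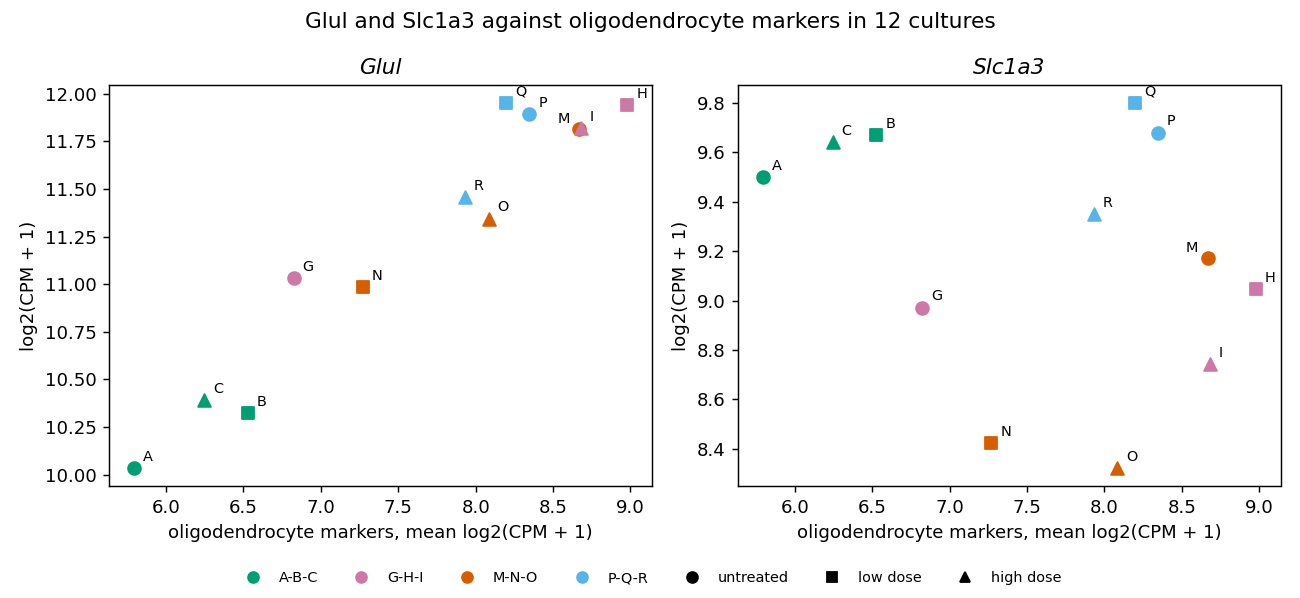
Log2(CPM + 1) of Glul (left) and Slc1a3 (right) against the mean log2(CPM + 1) of 10 oligodendrocyte markers in each of the 12 cultures, with colours for letter sets, shapes for doses and letters for cultures. Glul rises with the markers from culture A to culture H (r = 0.96), whereas Slc1a3 does not (r = -0.27).

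The gap junction genes were Gja1, which encodes connexin 43, and Gjb6, which encodes connexin 30. Gja1 was at 108, 303, 203 and 210.2 CPM in untreated A, G, M and P. It was at 144, 149, 86.3 and 237 CPM in low dose B, H, N and Q, and at 142, 98.8, 74.0 and 169 CPM in high dose C, I, O and R. The condition means were 206 ± 79.9, 154 ± 62.3 and 121 ± 42.8 CPM (SD, n = 4 each), but the ranges overlapped throughout, and the highest value was that of G, the culture with few neuronal transcripts.

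Gja1 had the largest change of the set in high dose vs. untreated, a log2 fold change of -0.66 (SE 0.40, 95% confidence interval -1.54 to 0.23). Its unadjusted p of 0.128 was the smallest of the set, and its adjusted p was 0.9999 (edgeR quasi-likelihood test with Benjamini-Hochberg adjustment). Without culture G the untreated mean was 174 ± 57.1 CPM (n = 3) and the fold change -0.41, and without A it was -1.03. Between the high and the low dose the change was -0.36 (SE 0.38, unadjusted p 0.367), and -0.06 without low dose Q.

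Gjb6 was near absent except in 1 culture. Its counts were 0, 56, 5 and 0 in untreated A, G, M and P, 11, 1, 0 and 4 in low dose B, H, N and Q, and 1, 7, 11 and 3 in high dose C, I, O and R. The 56 counts of G were 3.62 CPM, against at most 0.846 CPM elsewhere. A count of 0 allows up to 3 counts in a culture, by counting error alone, so a low level of connexin 30 was not detectable at this depth in cultures A, N and P. No fold change is given, as Gjb6 did not have enough counts to be tested.

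**Figure D3:**
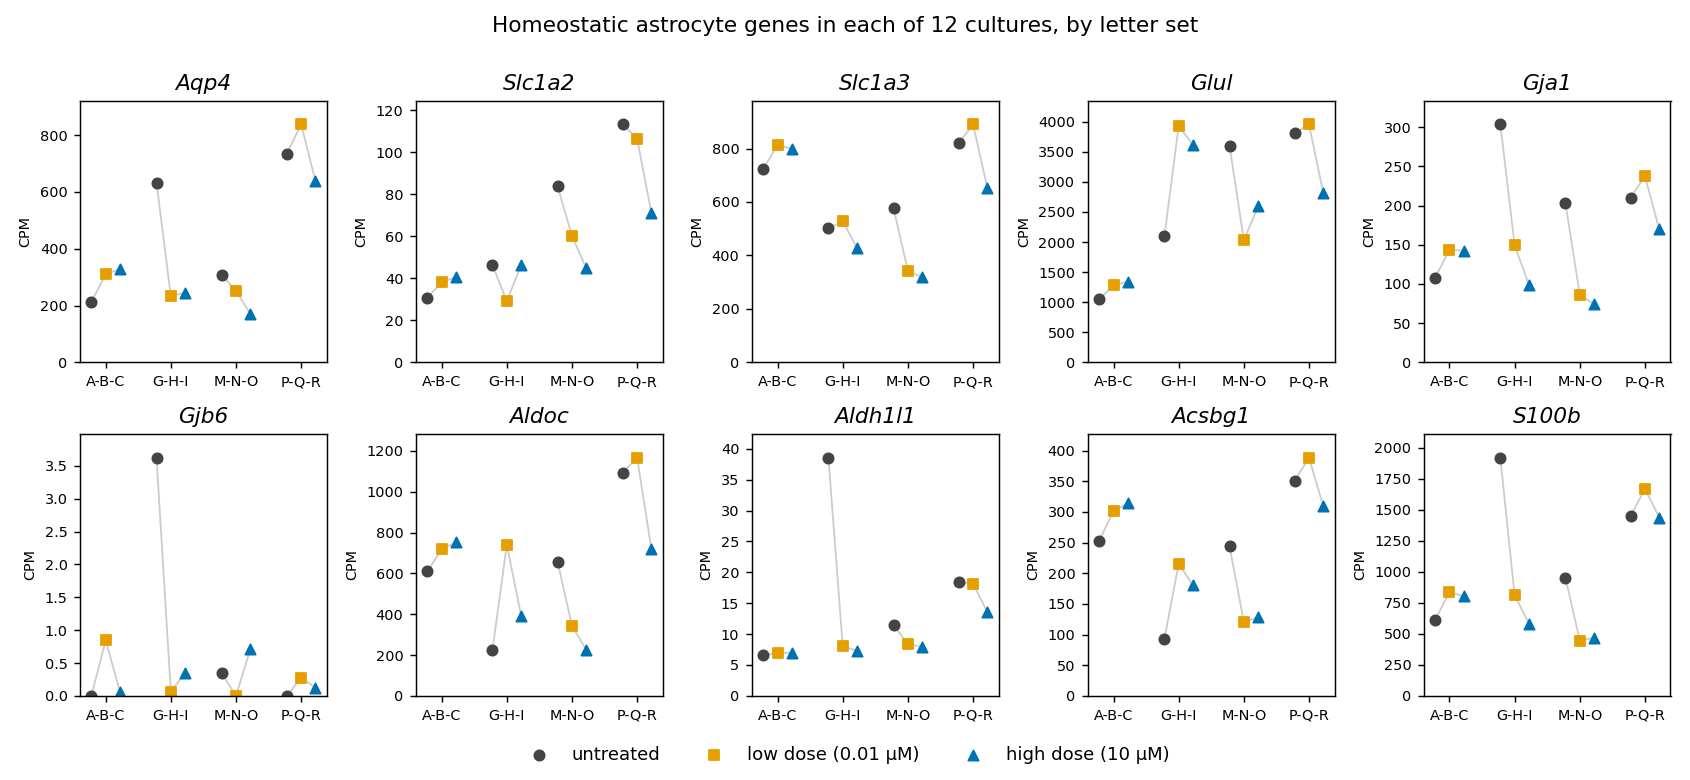
CPM (y axis, linear and from 0, its own scale for each gene) of the 10 homeostatic astrocyte genes in the 12 cultures, grouped by letter set on the x axis, with circles for untreated, squares for low dose and triangles for high dose, and grey lines joining the cultures of a letter set. The P-Q-R cultures held the highest values of Aqp4, Slc1a2, Slc1a3, Glul, Aldoc and Acsbg1, and untreated culture G those of Gja1, Gjb6, Aldh1l1 and S100b.

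Among the metabolic genes, Aldoc encodes aldolase C, the glycolytic enzyme that marks astrocytes. It was at 609.7, 225, 657 and 1093 CPM in untreated A, G, M and P. It was at 718, 741, 343 and 1167 CPM in low dose B, H, N and Q, and at 753, 393, 226 and 718 CPM in high dose C, I, O and R. The lowest values were those of untreated G and high dose O, and the highest those of P and Q. Aldoc had a log2 fold change of -0.55 (SE 0.35, unadjusted p 0.145) in high dose vs. untreated and -0.48 (SE 0.33, unadjusted p 0.182) in high dose vs. low dose by the edgeR quasi-likelihood test, the latter the largest of the set in that comparison. Without untreated P the first of these was -0.18, and without low dose Q the second was -0.23. The low dose value against untreated was -0.08 (SE 0.35), and it turned to 0.35 without P and to 0.20 with no factor in the fit.

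Aldh1l1, which encodes an enzyme of folate metabolism and is a widely used astrocyte marker, was at 6.61, 38.6, 11.4 and 18.5 CPM in untreated A, G, M and P. It was at 6.92, 8.09, 8.42 and 18.2 CPM in low dose B, H, N and Q, and at 6.99, 7.27, 7.93 and 13.6 CPM in high dose C, I, O and R. The A-B-C cultures lay between 6.61 and 6.99 CPM at all 3 doses, below the other 9. Its log2 fold change of -0.66 (SE 0.47, unadjusted p 0.188) in high dose vs. untreated was next to that of Gja1 in size, and the untreated mean was 18.8 ± 14.1 CPM with culture G and 12.2 ± 5.96 CPM (n = 3) without it. The fold change was -0.25 without G, -0.20 without P and -1.21 without A.

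Acsbg1 encodes an enzyme that activates long-chain fatty acids. It was at 253, 92.4, 244 and 351 CPM in untreated A, G, M and P. It was at 302, 216, 121 and 388 CPM in low dose B, H, N and Q, and at 314, 180.2, 128 and 309 CPM in high dose C, I, O and R. G was the lowest culture, and the P-Q-R and A-B-C cultures were the highest, as they were for Slc1a3. The fold changes were -0.14 (SE 0.29), -0.24 (SE 0.29) and -0.10 (SE 0.27) on the log2 scale, for the low dose and the high dose against untreated and for the high dose against the low dose.

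S100b, which encodes a calcium-binding protein that astrocytes also secrete, was at 614, 1919, 952 and 1450.4 CPM in untreated A, G, M and P. It was at 837, 809, 444 and 1669 CPM in low dose B, H, N and Q, and at 801, 583, 469 and 1437 CPM in high dose C, I, O and R. Culture G and the P-Q-R cultures were the highest. The condition means were 1234 ± 571, 939.8 ± 518 and 822 ± 433 CPM (SD, n = 4 each), and the untreated mean was 1006 ± 421 CPM without G (n = 3). The log2 fold change in high dose vs. untreated was -0.48 (SE 0.52, unadjusted p 0.377 by the edgeR quasi-likelihood test), and it was -0.16 without G, -0.07 without P and -0.94 without A.

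The letter sets differed more than the doses in the levels of the homeostatic genes. On the log2(CPM + 1) scale the letter sets held a median of 68.0% of a gene's variance (33.2% for Gja1 to 80.04% for Glul) and the doses a median of 7.56% (0.430% for Glul to 26.7% for Gja1). There are 4 letter sets and 3 doses, so a somewhat larger share for the sets arises by construction. Over all tested genes the medians were 55.7% and 8.69%, and without culture G they were 77.8% and 7.52% for the 9 homeostatic genes and 75.3% and 7.95% for all genes. The homeostatic genes thus shared a feature of the whole data set.

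P-Q-R was the set with the most of these transcripts. Low dose culture Q was the highest culture for 5 of the 9 tested genes, and for 18 of 55 tested genes of a wider astrocyte list. The share over all tested genes was not counted for Q, so the 5 of 9 are a description only. The mean log2(CPM + 1) of the 9 genes was 8.43 to 8.87 in P-Q-R, 7.30 to 8.24 in M-N-O, 7.67 to 8.19 in G-H-I and 7.61 to 7.94 in A-B-C. Only Aqp4 had all of P, Q and R above the other 9 cultures, which held for 7.2% of tested genes. Only Glul and Aldh1l1 had all of A, B and C below the other 9, which held for 14.5% of tested genes. Microglia markers were lowest in the same set, with a score of 1.64 to 1.83 in P-Q-R (10 markers) against 3.80 to 5.78 elsewhere, and the microglial receptor gene Cx3cr1 was at 0 to 0.0831 CPM in P-Q-R. The part of this difference in the astrocyte genes was not tested.

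Within the letter sets the direction of the dose differences was not shared. In A-B-C all 9 tested genes were higher in both treated cultures (B and C) than in untreated A, by medians of 0.29 and 0.36 on the log2(CPM + 1) scale. In M-N-O all 9 were lower than in untreated M, by medians of -0.83 and -0.89. In P-Q-R 7 of 9 were higher in low dose Q than in untreated P, with a median of 0.12, while at the high dose all 9 were lower, with a median of -0.33. In G-H-I, where the untreated culture is G, 4 were higher and 5 lower at the low dose, and 3 higher and 6 lower at the high dose.

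No homeostatic gene was lower in each of the 4 letter sets at the low or at the high dose than in untreated, where 5.25% and 5.18% of all tested genes were. In high dose vs. low dose, where these differences do not use culture G, 2 of 9 genes were lower in each set. These were Slc1a3, with differences of -0.45, -0.10, -0.30 and -0.03 in P-Q-R, M-N-O, G-H-I and A-B-C, and Gja1, with -0.48, -0.22, -0.59 and -0.02. In the same comparison 11.0% of all tested genes were lower in each set and 11.7% were higher in each set, against which 2 of 9 is too small a count to read as a result. Aldoc was lower in P-Q-R, M-N-O and G-H-I, with differences of -0.70, -0.60 and -0.91, and higher in A-B-C by 0.07.

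**Figure D4:**
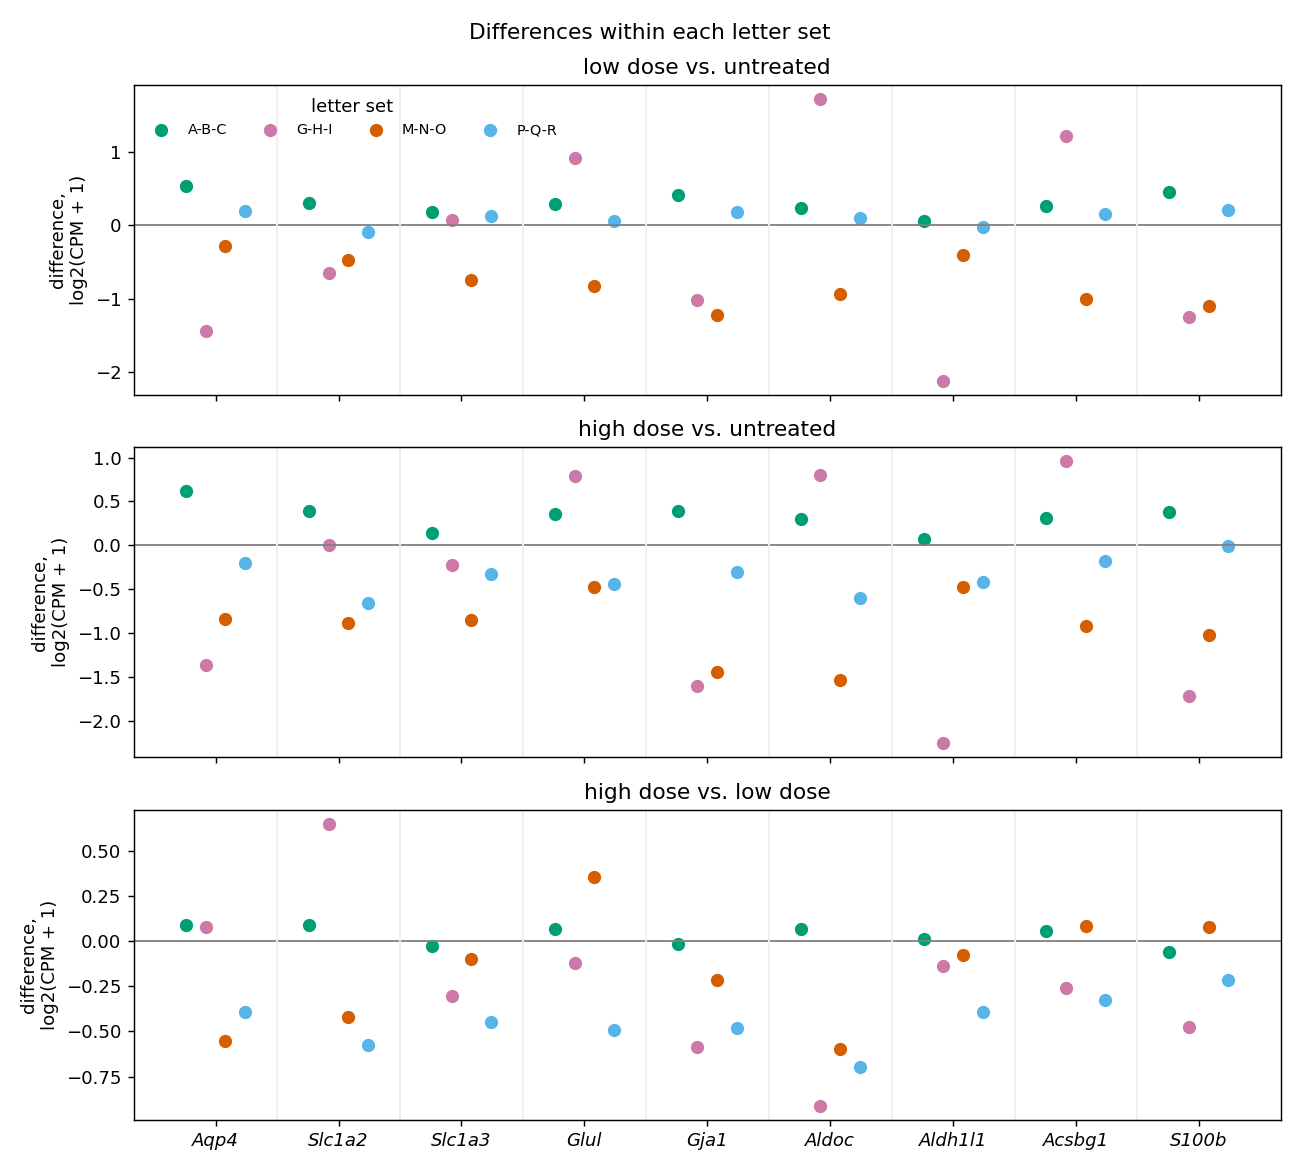
Differences in log2(CPM + 1) (y axis) between the cultures of a letter set for the 9 tested homeostatic genes (x axis), with 1 panel for each comparison and 1 point for each letter set. Points of A-B-C lie above 0 and those of M-N-O below 0 for all 9 genes where untreated is compared, and between the doses only Slc1a3 and Gja1 have all 4 points below 0.

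Across cultures most pairs of the 9 genes went together, more closely without culture G, and Glul did so least. The Pearson correlation between 2 of the genes had a median of 0.42 over the 36 pairs and 12 cultures, and a median of 0.75 without G. These correlations describe cultures that share letter sets. The highest pairs were Gja1 with S100b (0.95) and Aldoc with Acsbg1 (0.95). Without G the highest was Slc1a3 with Acsbg1 (0.97). Glul had correlations of -0.16 to 0.57 with the other genes over 12 cultures, and of -0.18 to 0.64 without G. Slc1a2 with Slc1a3 was also low without G, at 0.24.

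In culture G the homeostatic genes parted in both directions. Gja1, Aldh1l1 and S100b (and the untested Gjb6) were higher in G than in any other culture, at 2.11, 4.77 and 2.37 times the median of the other 11. Acsbg1 was lower in G than in any other culture, at 0.366 times that median. Aldoc in G was at 0.313 times that median, but level with high dose O (224.7 and 225.8 CPM). With DESeq2 size factors O was the lower of these cultures (225.4 in G and 224.0 in O). Aqp4, Slc1a2, Slc1a3 and Glul lay within the range of the others. G was the highest culture for 27.5% and the lowest for 28.5% of all tested genes, so 3 and 2 of 9 (with Aldoc counted) are close to the background. The ratio of S100b to Acsbg1 counts was 20.8 in G and 2.43 to 4.65 in the other 11 cultures, and that of Gja1 to Acsbg1 was 3.29 in G and 0.427 to 0.832 elsewhere. The reactive astrocyte score was also highest in G, 8.05 (15 genes), against 6.14 to 7.28 elsewhere. G is 1 culture without a replicate, and whether its values come from its makeup of cells or from its astrocytes was not tested.

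**Figure D5:**
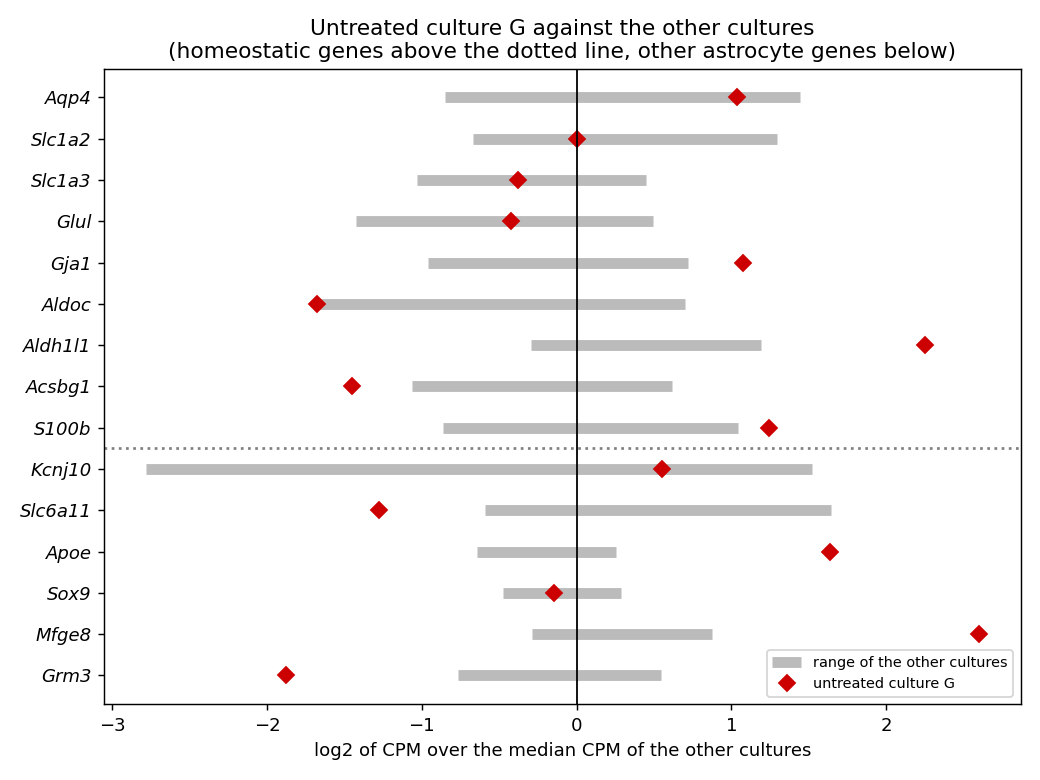
Log2 of the CPM in untreated culture G over the median CPM of the other 11 cultures (x axis; red diamonds) for the 9 tested homeostatic genes and 6 other astrocyte genes, with grey bars for the range of the other 11 cultures. Gja1, Aldh1l1 and S100b lie above their bars, Acsbg1 lies below its bar and Aldoc at its lower end.

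Other astrocyte genes were followed from a list of 59 in 9 roles, of which 57 were in the table and 55 were tested. At the high dose against untreated 0 of 55 passed the thresholds and 0 had an unadjusted p under 0.05, with a median log2 fold change of -0.15 and 45 below 0. In low dose vs. untreated the median was -0.07 (37 of 55 below 0, 0 called, 0 with an unadjusted p under 0.05). Between the doses the median was -0.12, 40 of 55 were below 0 and 0 were called, and 9 of 55 were lower in each letter set, where 11.0% of all tested genes were. Without culture G, 40, 32 and 37 of the 55 were below 0 in these 3 comparisons and 0 were called. In that fit 1 of 55 had an unadjusted p under 0.05 in each, where 2.34%, 1.99% and 4.24% of all tested genes did. With a block for the letter set and without G the counts in the same order were 7, 2 and 11 of 55. The shares of all tested genes were 9.43%, 7.54% and 13.6%, and 0 of 55 were called. In the reported fit, with culture G kept, 1 gene had an unadjusted p under 0.05 in high dose vs. low dose, the cholesterol transporter gene Abca1. Its log2 fold change was 0.53 (SE 0.22, unadjusted p 0.0356 and adjusted p 0.9999 by edgeR). This gene was picked out after its value was seen.

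By role, ion and water balance lay nearest to the homeostatic set, with 8 of 9 genes below 0 in high dose vs. untreated and a median of -0.29. Kcnj10, the potassium channel Kir4.1, was at 298 to 334 CPM in P-Q-R, 72.1 to 219.6 in M-N-O, 116 to 171 in G-H-I and 16.9 to 24.5 in A-B-C. That order of the sets differed from that of Slc1a3, and the ratio of Kcnj10 to Slc1a3 counts was 0.0234 to 0.0305 in A-B-C and 0.217 to 0.457 in the other 9 cultures. The fold change of Kcnj10 in high dose vs. untreated was -0.66 (SE 1.04) on the log2 scale.

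All 6 genes of transmitter uptake and recycling were below 0 in that comparison, with a median of -0.17. The smallest p was that of Glud1, glutamate dehydrogenase, at -0.20 (SE 0.18, unadjusted p 0.277). Slc6a11, the GABA transporter GAT-3, was at 33.0 to 49.9 CPM in P-Q-R and 6.60 to 20.4 CPM in the other 9 cultures, lowest in G, and had a fold change of -0.43 (SE 0.51). In serine, glycine and folate metabolism 5 of 5 were below 0 (median -0.12; Phgdh, which starts serine synthesis, -0.39, SE 0.36, unadjusted p 0.303). In glycogen, glycolysis and lactate handling 6 of 7 were below 0 (median -0.21), and the gene with the smallest p there was the exception, the lactate transporter gene Slc16a1 at 0.20 (SE 0.15, unadjusted p 0.209).

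The lipid supply genes were split, with 5 of 8 below 0 and a median of -0.07. Mfge8, a secreted milk fat globule protein, had the smallest p of all 55 genes, with a log2 fold change of -0.29 (SE 0.15, unadjusted p 0.0757 and adjusted p 0.9999 by edgeR). It stood at 447 CPM in G and 60.4 to 135 CPM elsewhere. Apoe, the main lipid carrier of astrocytes, was at 5099 CPM in G and 1052 to 1954 CPM elsewhere, with a fold change of 0.15 (SE 0.19). Among receptors 6 of 8 were below 0 (median -0.27), and the metabotropic glutamate receptor gene Grm3 was the one with the smallest p, at 0.55 (SE 0.30, unadjusted p 0.0985).

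For transcription factors 5 of 6 were below 0 (median -0.05), with Nfia at -0.17 (SE 0.18, unadjusted p 0.357). Sox9, an astrocyte fate regulator, varied little, at 48.6 to 82.4 CPM across the 12 cultures and -0.05 (SE 0.19) in high dose vs. untreated. Of the secreted synapse factors 3 of 5 were below 0 (median -0.00), with Sparcl1 at -0.36 (SE 0.33, unadjusted p 0.297). For gap junctions and adhesion, the tight junction gene Tjp1 was the only one tested, at -0.08 (SE 0.19, unadjusted p 0.666).

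Reactive astrocyte genes lay on the other side of 0. In high dose vs. untreated the median log2 fold change of 15 tested was 0.45, 13 were above 0, 0 were called and 6 had an unadjusted p under 0.05, as 1.19% of all tested genes did. These 6, named after their values were seen, were Lcn2, Serpina3n, Steap4, Hspb1, Cp and C3, which are genes of acute-phase, complement and stress responses and are also made by other cells. Untreated culture G held the highest values of the 12 cultures for Lcn2 (1889 CPM), C3 (700.4 CPM), Steap4 (68.96 CPM) and Cp (1357 CPM). For Steap4 the fitted log2 fold change was 2.33, while the difference between the condition means of log2(CPM + 1) was 0.08. Without G the list had a median of 0.56, with 12 of 15 above 0 and 0 called. Of these 15, 6 had an unadjusted p under 0.05, where 2.34% of all tested genes did. With a block for the letter set and without G, 2 of 15 were called by edgeR, where 15 of all 12337 tested genes were. In that fit 11 of 15 had an unadjusted p under 0.05, as 9.43% of all tested genes did. Gfap, the intermediate filament gene of astrocytes, did not go with most of this list. It was at 1244, 4282, 1605 and 5770.4 CPM in untreated A, G, M and P, at 1770.4, 1815, 1707 and 6864 CPM in low dose B, H, N and Q, and at 1829, 1122, 835 and 4584 CPM in high dose C, I, O and R. Its P-Q-R cultures and G were high, as for Aqp4 and S100b, and its log2 fold change in high dose vs. untreated was -0.67 (SE 0.77, unadjusted p 0.405 by the edgeR quasi-likelihood test).

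Genes most like the homeostatic set were sought among 9248 genes with a mean of at least 10 CPM, by the Pearson correlation of log2(CPM + 1) with the mean z-score of the 9 genes over the 12 cultures. The highest 8 were Mtmr10 (0.99), Arhgef19 (0.97), Zfp191 (0.96), Vgll4 (0.95), Dmd (0.95), Jam2 (0.95), Slc27a1 (0.95) and Gpr37l1 (0.94). The lowest 4 were Gspt1 (-0.94), Hyou1 (-0.94), Dnajb1 (-0.92) and Tcp1 (-0.91). The 12 genes kept a correlation of the same sign without culture G, but only 2 of the highest 8 and 1 of the lowest 4 were again among the 8 and 4 at the ends of the ranking made without it. The highest without G were Mtmr10, Mfap3l, Slc6a11, Arhgef19, Cyp27a1, Sfxn5, Aldh5a1 and Adgrg1, and the lowest were Prkab1, Ier3, Cxcl16 and Gspt1. The 12 cultures share letter sets, and the ends of so long a ranking are a description only.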

How the data were processed

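Libraries were poly(A)-enriched, and the authors used STAR and featureCounts with the rat build rn6. The deposited values are whole-number counts per gene symbol and culture, with no normalization. Counts were used as deposited, with DESeq2 1.42.0, limma 3.58.1 and edgeR 4.0.16 under R 4.3.3. The filterByExpr function kept 12271 genes, TMM scaled the libraries, and 1 factor of unwanted variation was estimated from the replicates of each condition by the RUVs formula rewritten in R, since the study names RUVseq without its settings. The factor was 3.09 in untreated culture G and -0.73 to 0.51 in the other 11 cultures. All 12 cultures were fitted in 1 model with the conditions and this factor, and p-values of the edgeR quasi-likelihood test were adjusted by Benjamini-Hochberg over the 12271 genes. The procedure was tested on simulated counts. These had no letter sets and less spread between cultures than the data, so they do not show which changes could be detected here. Scores are means of log2(CPM + 1) over the tested genes of a list.

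The 10 homeostatic genes, the other lists and the tests were chosen with earlier results of these data known. Apart from the 10 genes, the text names genes past the thresholds, of which the reported fit had none. For each role it names 1 gene with the lowest p for the high dose against untreated. Kcnj10, Slc6a11, Apoe, Sox9 and Gfap are named too, as are the genes most and least like the set. The gene of 1 role is not reported here. Hepacam and Gpc6 of the astrocyte list were not matched and were not analysed here. Alternatives were no factor, 2 factors, a replicate block by letter set with and without culture G, the likelihood ratio test, DESeq2, DESeq2 size factors, other filters on low counts, and each culture left out in turn. Leaving out G and N together, and the other gene lists without G, were added after seeing the data. No sequences or coordinates are given, as no genome of build rn6 was used here.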

Additional observations from a re-analysis of the deposited data

Results flagged for a closer look

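In a group of 4 cultures, a value was picked out where its gap to the nearest other culture, over the range of the group, passed Dixon's 95% critical value for 4 values. Of 60 groups checked (3 conditions for each of the 10 genes and 10 lists), 9 did so, and chance alone picks out about 1 in 20 groups.

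Among the homeostatic genes, Aqp4 in low dose culture Q stood at 838 CPM, far above the other low dose cultures (233 to 309.9 CPM). Aldh1l1 was far above its group in low dose culture Q (18.2 CPM against 6.92 to 8.42) and in high dose culture R (13.6 CPM against 6.99 to 7.93), both of the letter set P-Q-R. Gjb6 in untreated culture G stood at 3.62 CPM against 0 to 0.343 in the other untreated cultures.

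Among the list scores, untreated culture G had a low neuron marker score of 4.07 (others 7.53 to 8.09) and a high reactive astrocyte score of 8.05 (others 6.14 to 6.38). The reactive astrocyte score of high dose culture O was 7.28 (others 6.98 to 6.996). The fibroblast marker score of low dose culture N was 7.21 (others 4.61 to 4.64), and the cycling marker score of untreated culture A was 2.36 (others 3.51 to 3.65).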

How the results depend on the processing

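No homeostatic gene was called under any alternative. Of 594 values of the 9 tested genes (9 genes, 3 comparisons, 22 alternatives), 52 had the opposite sign to the reported value and 5 had an unadjusted p under 0.05, all in high dose vs. untreated. The smallest adjusted p was 0.472 in that comparison and 0.405 between the doses, both for Aldoc with a block by letter set and no culture G (edgeR). Against untreated, the high dose values of Gja1, Aldoc, Aldh1l1, S100b and Slc1a3 were below 0 under all 22 alternatives, as were Gja1, Aldoc and Slc1a3 between the doses. With DESeq2 size factors the 30 mean levels moved by less than the SD between the cultures of a condition. Without culture G the 12 likeness correlations stayed inside the 95% confidence interval of their value over 12 cultures. Neither check could show much. Both scalings lay close together (213 and 216 CPM for Aqp4 in untreated A), and the correlations shared all cultures but G.

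The number of genes called, 0 as reported, became 1 in high dose vs. untreated and 1 between the doses with 2 RUVs factors, 2 in high dose vs. untreated with the likelihood ratio test, and 3 and 1 with DESeq2. With a replicate block by letter set and without culture G it became 15 and 14. The letters are not stated to pair the cultures. With the block alone Gja1 was at -0.80 in high dose vs. untreated (unadjusted p 0.0447 by edgeR), and with the block and no G Aldoc was at -0.70 (unadjusted p 0.0323). Without untreated A, Slc1a2 was at -0.84, Gja1 at -1.03 and Aldh1l1 at -1.21 (unadjusted p 0.0367, 0.0271 and 0.0402 by edgeR). These were 3 of 9 homeostatic genes, where 4.05% of all tested genes had an unadjusted p under 0.05 in that fit. The 2 block fits had 1 of 9 each, where 3.05% (with G) and 9.43% (without G) of all tested genes did. Most pairs of the 9 genes vary together, so the 3 are not independent observations.

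Changes of sign in low dose vs. untreated were Aldoc 0.20 and Acsbg1 0.13 with no factor, Aldoc 0.20 and Acsbg1 0.10 with the block, and Aqp4 0.073 and Glul -0.15 with the block and no G. Without G and N, chosen after seeing the data, the median was 0.10, with Aqp4 0.19, Slc1a3 0.076, Gja1 0.044, Aldoc 0.17, Acsbg1 0.10 and S100b 0.17. In high dose vs. untreated Glul was 0.19 with 2 factors, 0.024 with the block, 0.00 (0.000356) with at least 10 counts in every culture and 0.11 without G and N. Between the doses Glul was 0.01 (0.0074) with 2 factors and Slc1a2 0.036 without G and N.

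Leaving out 1 culture at a time, the median in low dose vs. untreated ran from -0.68 to 0.15 (above 0 without P, 0.15, and without N, 0.07), with Aqp4 -0.77 to 0.51, Slc1a2 -0.72 to 0.20, Slc1a3 -0.38 to 0.037, Glul -0.37 to 0.44, Aldoc -0.33 to 0.35, Aldh1l1 -0.98 to 0.01 (0.00688), Acsbg1 -0.37 to 0.15 and S100b -0.77 to 0.12. In high dose vs. untreated the median ran from -0.84 (without A) to -0.07 (without P), with Aqp4 -0.95 to 0.29, Slc1a2 -0.84 to 0.00 (0.00025), Glul -0.43 to 0.33 and Acsbg1 -0.39 to 0.01 (0.0062). Between the doses it ran from -0.56 to 0.13 (above 0 without Q, 0.13), with Aqp4 -0.73 to 0.40, Slc1a2 -0.43 to 0.24, Glul -0.33 to 0.12, Aldh1l1 -0.56 to 0.23, Acsbg1 -0.30 to 0.13 and S100b -0.63 to 0.24. The causes of these shifts were not tested. With 4 cultures a condition, the confidence intervals limit what could be seen, and only Gjb6 was limited by depth.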
